A study of Caenorhabditis elegans with 4 samples.

Results

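LIN-53 regions on chromosome III were the places on this chromosome at which chromatin immunoprecipitation followed by sequencing (ChIP-seq) gave LIN-53 peaks in L3 larvae of Caenorhabditis elegans. All chromosome III peaks of 2 ChIP replicates were taken (403 in replicate 1 and 376 in replicate 2), and peaks that shared at least 1 bp, within a list or between the lists, were joined. This gave 512 regions, of 2662 regions on all chromosomes. Of the 512 regions, 249 held peaks of both replicates (48.6%, against 46.4% of the regions of all chromosomes), 146 held peaks of replicate 1 only and 117 held peaks of replicate 2 only.

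The study used the wild-type strain N2, grown at 20 °C as a mixed population of males and hermaphrodites, and a rabbit polyclonal antibody, purified by affinity, that was raised against LIN-53. Larvae were ground and fixed in 1% formaldehyde for 10 min. The series holds 2 ChIP and 2 input DNA libraries, and the lists of the ChIP libraries were analysed here together with a list of the whole series, whose entries are called sites below. Whole animals were used, so a region may be bound in some tissues only, and the labels do not say whether the replicates came from separate cultures.

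LIN-53 is a WD-repeat protein that binds histones and is the worm relative of the mammalian retinoblastoma-binding proteins RBBP4 and RBBP7. It works as a shared subunit of larger chromatin assemblies, among them DRM, the worm counterpart of the DREAM repressor complex, and the NuRD nucleosome-remodelling and deacetylase complex. In larvae it is best known as a class B synthetic multivulva gene, a group that restrains vulval fates. Positions below are those of WormBase build WS220, without assignment to genes, which were not analysed here. The deposited scores are the authors' own, the scales of the peak scores and of the site scores are not named, and read depth is unknown. A place missing from a list may therefore still be bound.

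Regions in both lists were wide and high-scoring, and regions in 1 list were narrow and low. The median width was 212 bp for regions in both lists (interquartile range 156 to 271 bp), 78 bp for regions of replicate 1 only (57.3 to 98 bp) and 55 bp for regions of replicate 2 only (44 to 82 bp). Regions in both lists are joined from peaks of each list, which adds to their width and covered length. Where each list had a single peak, the median peak width was 174 bp in replicate 1 and 182 bp in replicate 2. Regions in both lists covered 56.1 kb, against 12.5 kb and 8.28 kb for the regions of replicate 1 only and replicate 2 only. Together they took up 0.558% of the chromosome. In replicate 1 the median score was 30.2 for regions in both lists and 5.79 for regions of replicate 1 only. In replicate 2 it was 13.4 and 5.61. All 109 regions with a replicate 1 score above percentile 75 of that whole list were also in replicate 2. Of the 106 with a replicate 2 score above percentile 75, 99 were also in replicate 1, and 6 of the remaining regions belonged to a run of narrow peaks described below. Such counts were not made for the other chromosomes, so they mark no trait of chromosome III.

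The 1 bp rule left a few regions near its limit. Among regions with a single peak in each list, the smallest common part was 8 bp, at 793690 to 793942, where the replicate 1 peak ended at 793858 and the replicate 2 peak began at 793851. The next shared 10 bp, from 11848394 to 11848403. Just outside the rule, a replicate 1 peak at 13340934 to 13341018 and a replicate 2 peak at 13341019 to 13341061 abutted without a common base and stayed separate regions. With a common part of at least 50% of both peaks, 193 of 512 regions counted as shared (37.7%, against 37.6% on the other autosomes).

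The 12 regions that ranked best by score, as the mean of both lists, lay along the whole chromosome, from 1618818 to 13463169. The one at 7277209 to 7277543 held the highest-scoring peak of the entire replicate 1 list (rank 1 of 1948) and ranked 10 of 2055 in replicate 2. Ranks in replicates 1 and 2 were 2 and 8 at 7854344 to 7854766, 17 and 5 at 3867384 to 3867710, and 19 and 15 at 1950191 to 1950613. These ranks are places in each genome-wide list, not only among the peaks of chromosome III. The regions were chosen by the same ranks, so high places are in part set by the choice.

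The other 8 regions of this group scored 120 to 156 in replicate 1 and 67.0 to 216 in replicate 2. At 1962147 to 1962766 the score was 128 in replicate 1 and 216 in replicate 2, where it was the second highest of the whole list (rank 2). At 1618818 to 1619357 it was 120 and 140. Both lay near the left end of this range, and both were wider than any other of the 12, at 620 and 540 bp. The scores were 156 and 72.4 at 5678906 to 5679218, 130 and 86.4 at 8809546 to 8809862, and 121 and 100.2 at 10758988 to 10759297. In these 3 the replicate 1 score was the higher one, as in the remaining 3 regions. Those were at 11007591 to 11007885 (140 and 67.0), 11142080 to 11142334 (147 and 73.9) and 13462754 to 13463169 (128 and 92.3). Replicate 2 had the higher score in 3 of the 12, namely at 1618818, 1962147 and 3867384.

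**Figure D1:**
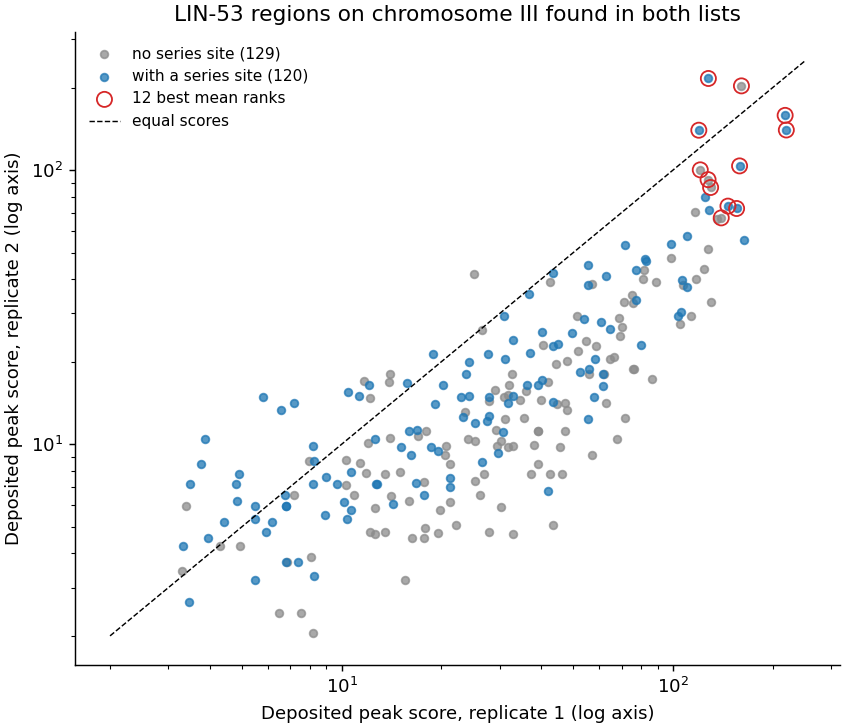
Deposited peak score in replicate 1 (horizontal, log axis) against replicate 2 (vertical, log axis) for the 249 regions on chromosome III found in both lists, 1 point per region, using the strongest peak of each list. Blue points have a site of the series list, red rings mark the 12 regions with the best mean rank, and most points lie below the dashed line of equal scores.

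The replicates ranked the regions in a similar order. Among the 233 regions with a single peak in each list, Spearman's rho of the scores was 0.823 and Pearson's r of the log2 scores was 0.819. The same values for the 878 such regions on the other autosomes were 0.771 and 0.760. These correlations run across regions of the same libraries and are given as descriptions. Replicate 1 had the higher score in 205 of the 233 regions (88.0%), and the ratio of the 2 scores had a median of 2.10 and quartiles of 1.43 and 2.94. The other autosomes were close, with 743 of 878 regions (84.6%) and a median ratio of 2.05, so this is not particular to chromosome III. These comparisons hold only if the lists share a scale. The ratio reached 8.57 at 1202248 to 1202439, with 43.4 for replicate 1 and 5.07 for replicate 2. It was 7.01 from 8767952 to 8768079 (33 and 4.71) and 6.48 from 12377271 to 12377448 (67.9 and 10.5). The series list had no site in any of these 3. At the other end, the ratio was 0.370 at 2111529 to 2111634 (3.87 and 10.5), 0.390 from 9780637 to 9780908 (5.8 and 14.9) and 0.487 from 11343104 to 11343168 (3.48 and 7.15). Each of these had a site. Sites did not follow the ratio throughout. The region from 9747161 to 9747362 had a ratio of 6.23 and a site, and that from 9570894 to 9571087 had 0.571 and no site. A link between ratio and sites was not tested.

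In these 233 pairs the peak midpoints lay close together. The pairs were formed by overlap, which limits how far midpoints can differ, so this closeness is in part set by the rule. Regions of 1 list have no such pair and are left out. Midpoints differed by a median of 19 bp, with 135 of 233 within 25 bp (57.9%) and a maximum of 122.5 bp, and the common part made up a median of 71.1% of the joined width. Wide peaks were high-scoring peaks in both lists, and Spearman's rho between width and score was 0.770 for replicate 1 and 0.772 for replicate 2. The width ratio of the replicates turned round along the score range. The 233 regions were split into 3 groups by mean score percentile. In the lowest group the median peak width was 117 bp in replicate 1 and 82.5 bp in replicate 2, and replicate 2 had the wider peak in 22 of 78 regions. In the highest group the widths were 227.5 and 260 bp, and replicate 2 had the wider peak in 61 of 78. The middle group lay between, with 169 and 180 bp and 44 of 77 regions.

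The widest regions were compound. The widest of all, from 10460511 to 10461363 (853 bp), was a single replicate 2 peak with a score of 38.0. In replicate 1 it was split into 3 peaks, at 10460558 to 10460710 (score 55.2), 10460838 to 10460894 (5.6) and 10461090 to 10461325 (24.1). The left part thus scored highest and the middle part lowest, and the series list had 3 sites there. The region from 1533152 to 1533816 (665 bp) was likewise 1 peak in replicate 2 (79.8) and 2 peaks in replicate 1, of 125 on the left and 14.1 on the right. The region from 5274780 to 5275522 (743 bp) was made of 2 peaks in each list and was weak, with scores of 7.19 and 3.25 in replicate 1 and 14.2 and 11.8 in replicate 2.

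Regions of 1 list included few strong peaks in replicate 1. The 5 highest of replicate 1 only scored 22.0 (7708581 to 7708671), 21.3 (4986899 to 4987053), 20.4 (9467150 to 9467272), 20.3 (3735087 to 3735234) and 19.6 (3499903 to 3500122). They ranked 709 to 767 of 1948, all below percentile 75, and lay at separate places. Of the 146 regions of replicate 1 only, 26 had a replicate 2 peak within 500 bp. Of the 117 regions of replicate 2 only, 42 had a replicate 1 peak within 500 bp. Matching counts for the other chromosomes are not given here, so neither count marks a trait of chromosome III.

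The 5 highest regions of replicate 2 only lay in a single place. They were at 5353748 to 5353838 (score 26.3), 5353893 to 5353952 (23.7), 5354170 to 5354252 (20.8), 5355939 to 5355979 (18.9) and 5358052 to 5358094 (17.7), and they were 41 to 91 bp wide. They belonged to a run of 24 regions between 5353145 and 5358315, a span of 5171 bp. In this run the widths were 37 to 166 bp (median 60.5 bp), the gaps 47 to 514 bp (median 133 bp) and the scores 2.87 to 26.3 (median 12.4). The run held 20.5% of all regions of replicate 2 only. Replicate 1 had no peak and the series list no site within it. The nearest region on the left, at 5349344 to 5349528, was in both lists and lay 3616 bp away, and scored 42.5 and 7.8. The nearest on the right lay 21787 bp away. Runs of this kind, defined as at least 10 regions of 1 list, each within 1000 bp of the next, were not found on chromosome III alone. All were in replicate 2, and a longer one, with 35 regions, lay on chromosome IV from 8572697 to 8581845. Left out on all chromosomes, these runs took the share of chromosome III regions in both lists from 48.6% to 51.0%, and that of the other autosomes from 48.5% to 51.0%. What sets the replicates apart there was not tested.

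**Figure D2:**
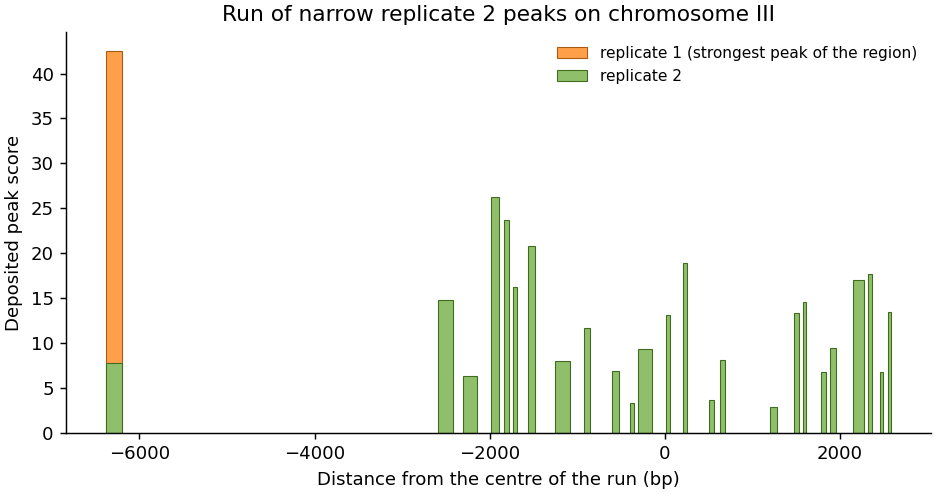
Deposited peak score (vertical) against distance from the centre of the run in bp (horizontal) for the 24 replicate 2 peaks of the run and the nearest region to its left. Each bar starts at 0 and is as wide as its peak or region. Replicate 1 (orange, behind the green bar) has a peak only in the left-hand region, with a score of 42.5.

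Regions in both lists were spread along the whole chromosome. With the length cut into 10 equal segments, numbered from the left, segment 1 held the fewest (14 regions) and segment 3 the most (35 regions), and the others held 19 to 31. The middle section of the 3 equal sections held 90 of the 249 regions (36.1%, 95% Clopper-Pearson interval 30.2 to 42.4%, against 37.4% of the regions in both lists of all chromosomes). The share on the other autosomes was 37.7%, and the difference was not past the threshold (Fisher's exact test, two-sided, adjusted p = 0.791). The median replicate 1 score of regions in both lists was 30.8 in the left, 32.3 in the middle and 25.3 in the right section, and the median replicate 2 score was 14.7, 14.2 and 11.1.

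Neighbouring regions in both lists stood a median of 35.0 kb apart. Among the 248 gaps, 11 were at most 500 bp, the shortest of 24 bp between 1142865 and 1142890. The longest gap ran from 7573127 to 7854344 (281 kb). It ended at the region with the best mean rank on the chromosome and held 8 regions of 1 list, among them the strongest region of replicate 1 only. The highest number in a 100 kb window was 6, reached in the windows starting at 3300001, 3400001 and 7100001, and 23 of 138 windows held none. When the regions of 1 list were counted too, 172 of 512 regions had a neighbour within 500 bp (33.6%, 29.5 to 37.9%, against 36.9% of the regions of all chromosomes). Of these 172, 81 were regions of replicate 2 only, and the 81 include the run of 24 described above. This split by list was not counted for the other chromosomes. The share was 37.3% on the other autosomes (35.2 to 39.5%), a difference not past the threshold (Fisher's exact test, adjusted p = 0.244). Without replicate 1, 34.6% of the replicate 2 peaks on chromosome III and 41.2% of those on the other autosomes had such a neighbour, and the difference was past it (adjusted Fisher's exact p = 0.0375, with a range from 0.00161 to 0.261 over the alternatives).

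**Figure D3:**
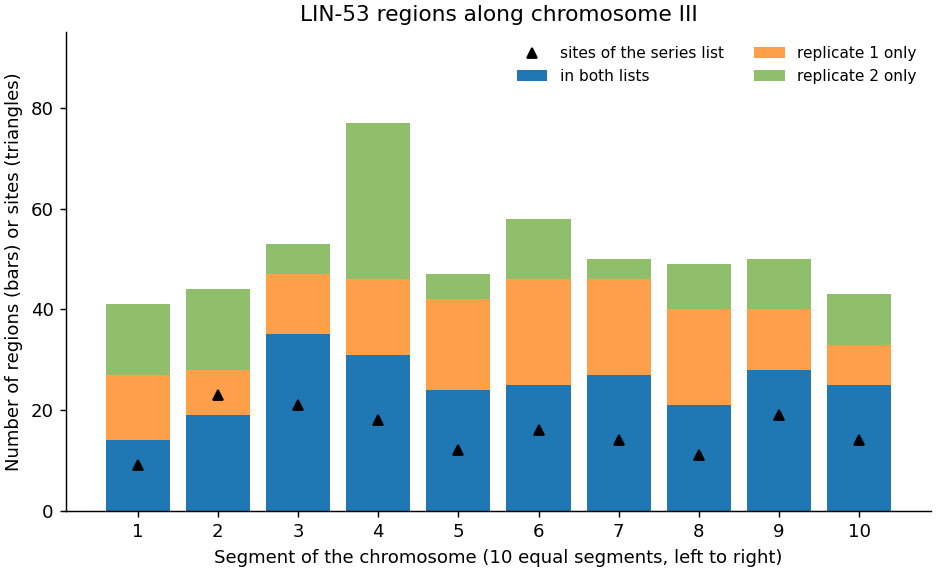
Number of regions on chromosome III in each of 10 equal segments of its length, left to right (horizontal), as stacked bars for regions in both lists, of replicate 1 only and of replicate 2 only, with the number of series sites as triangles. Segment 4 has 31 regions of replicate 2 only, which include the run of 24.

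The series list had 157 sites on chromosome III, of 706 in all. They were 53 to 326 bp wide, with a median of 79 bp. Their entries are named consistent_site, and whether overlap with both replicates was required is not stated. Overlap with the replicate lists is therefore no independent check. Of the 157 sites, 140 touched peaks of both replicates, 12 touched a replicate 2 peak only, 3 a replicate 1 peak only and 2 neither. The last 2 lay at 9807892 to 9807951 and at 13105513 to 13105572. A replicate 1 peak ended at 9807886, just left of the former, so a count of sites touching no peak does not mean that none was near. These counts were not made for the other chromosomes. Seen from the regions, 120 of the 249 in both lists had a site (48.2%, 41.8 to 54.6%, against 45.2% on all chromosomes), 100 of them with 1 site, 18 with 2 and 2 with 3. On the other autosomes the share was 44.3% (41.1 to 47.5%), and the difference was not past the threshold (Fisher's exact test, adjusted p = 0.425). Among the 12 regions with the best mean rank, 7 had a site. Those without were at 3867384, 8809546, 10758988, 11007591 and 13462754. The share of regions with a site did not climb with the score, at 39 of 78, 32 of 77 and 37 of 78 regions from the lowest to the highest of the 3 score groups.

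Sites in high-scoring regions mostly left the centre of the region uncovered. Among regions with 1 peak in each list, 119 sites were narrower than their region, and 46 of them (38.7%) covered its centre. In the lowest score group 27 of 35 sites did, in the middle group 14 of 37 and in the highest group 5 of 47. Site width was alike in the 3 groups, with medians of 76, 83 and 75 bp, whereas region width was 144, 233 and 306 bp, so a strong region left more room beside its centre. A site inside its region and over 50% as wide covers the centre wherever it lies, as held for 20 of 35, 8 of 37 and 2 of 47 sites from the lowest to the highest group. Among the other sites, 7 of 15, 6 of 29 and 3 of 45 covered the centre. These counts were added after the values were seen. No count expected from the widths was computed. Placement at or away from the centre was therefore not tested, and none of these counts shows it. In regions with 1 peak in each list and a mean percentile of at least 90, none of the 28 sites covered the centre, and their midpoints lay 39.5 to 221.5 bp from it, 13 to the left and 15 to the right. The percentile was chosen after the values were seen. A region with 2 replicate 1 peaks, from 12904651 to 12905302, scored 83.0 and 46.6 and did have a site over its centre, at 12904700 to 12905025.

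Within 1962147 to 1962766, sites at 1962191 to 1962308 and 1962574 to 1962717 stood on either side of the centre. Sites at 1950246 to 1950308 and 1950497 to 1950563 did so within 1950191 to 1950613. Within 1618818 to 1619357 both sites, at 1618814 to 1618918 and 1618969 to 1619030, lay to the left of the centre. The regions from 7277209 and from 11142080 had 1 site each, to the right of the centre, and the region from 5678906 had 1 to the left. None of the 11 sites in the 12 top regions covered a centre.

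**Figure D4:**
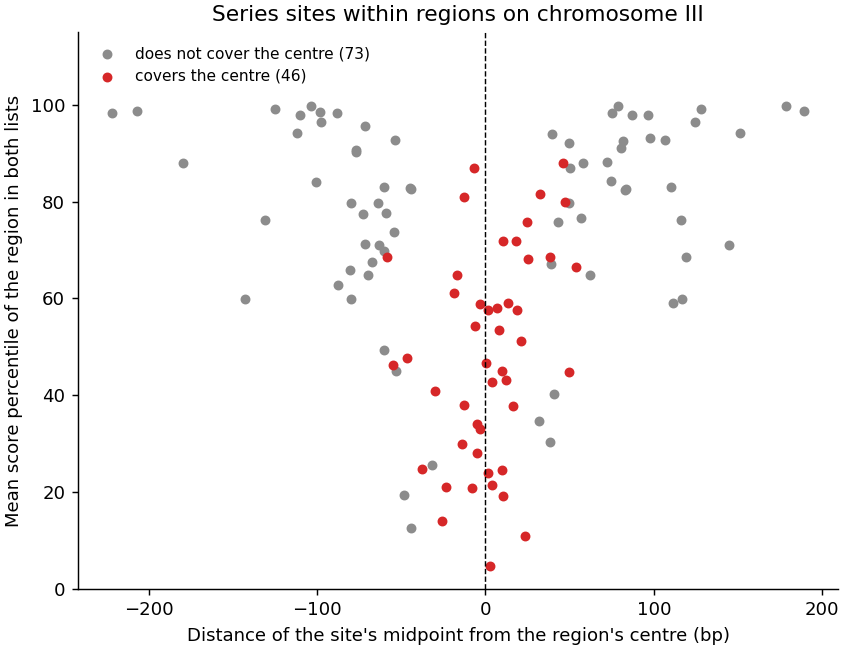
Distance of each series site's midpoint from the centre of its region in bp (horizontal) against the mean score percentile of the region in both lists (vertical), for the 119 sites narrower than a region with 1 peak in each list. Sites that cover the centre (red, 46) lie mostly in the lower part of the plot, and sites beside it (grey, 73) mostly in the upper part.

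The score of the sites ran from -1.98 to 1.99, with a median of 1.81, and 15 of 157 scores were below 0 (9.55%, against 11.6% in the whole list). The lowest value was reached at 1962191 to 1962308, in a region that ranked 48 and 2 in replicates 1 and 2, and at 11317152 to 11317369, in a region that ranked 243 and 241. In regions with 1 peak in each list, 5 of 9 sites below 0 and 19 of 114 other sites lay where replicate 2 had the higher peak score. Sites and not regions are counted, and what a site score below 0 means is not stated. Among the 5, the sites at 1618814 to 1618918 and 1618969 to 1619030 lay in the same region.

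Chromosome III carried more regions per length than the other autosomes together. It had 18.1 regions in both lists per Mb, against 13.7 on the other autosomes, a ratio of 1.32 (95% exact interval 1.14 to 1.51, exact binomial test, two-sided, adjusted p = 0.000491). For series sites the densities were 11.4 and 7.66 per Mb, a ratio of 1.49 (1.24 to 1.78, adjusted exact binomial p = 0.000146). Of the 157 sites on chromosome III, 142 lay in regions already counted in both lists. The site density is therefore not independent support for the region density. These tests treat regions as independent, which they are not, so the p-values may be too small. Expected numbers follow the furthest peak end of each chromosome. Set against single autosomes, the ratio was past the threshold for IV and V. It was 1.85 against V (1.53 to 2.24, exact binomial p adjusted over the 4 pairs 2.58e-10) and 1.44 against IV (1.19 to 1.73, adjusted exact binomial p = 0.000218). Without replicate 1, the ratio to IV was 1.17 and not past the threshold (adjusted exact binomial p = 0.0562, with a range from 2.83e-06 to 0.0562 over the alternatives). Against II the ratio was 1.17 (0.976 to 1.40, adjusted exact binomial p = 0.112). It passed the threshold in 3 of 4 alternatives, at 1.24 without replicate 1, 1.25 without replicate 2 and 1.28 with peaks within 500 bp joined (adjusted exact binomial p = 0.00651, 0.00304 and 0.0108, with a range from 0.00304 to 0.304 over the alternatives). Against I it was 0.958 (0.805 to 1.14, adjusted exact binomial p = 0.634), so no difference from I was shown in either direction.

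In the share of regions found in both lists, chromosome III and the other autosomes were close. It was 48.6% on III (44.2 to 53.1%) and 48.5% on the other autosomes (46.2 to 50.7%, Fisher's exact test, adjusted p = 0.960). The median width of regions in both lists was 212 bp on III and 207 bp on the other autosomes. Their median scores were 30.2 and 25.3 in replicate 1 and 13.4 and 12.4 in replicate 2, which were not tested because regions are not replicates.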

How the data were processed

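LIN-53 ChIP-seq peaks of 2 replicates of L3 larvae and a list of the whole series were used. Input libraries were not analysed here. The authors deposited 1 score for each peak or site. Per the file headers, the lists come from MACS (a peak caller) and coordinates are those of WormBase WS220. BWA (a read aligner) is named in the submitters' processing notes. For versions, settings and use of the input, nothing is given in the sources used here. Of the series list only the entry name, consistent_site, is given, not how it was made. The gene table at hand refers to WBcel235, so genes and sequences were not assigned.

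Regions, sections and neighbours were computed from the intervals, with the furthest peak end as chromosome length. Numbers were compared by two-sided exact binomial tests and shares by two-sided Fisher's exact tests, with Benjamini-Hochberg adjustment over 6 tests and a threshold of 0.05. Density ratios to single autosomes were added later and adjusted over 4 pairs. Intervals cover counting of regions only, and p-values measure no spread between cultures. All tests count regions as independent, which they are not. Regions named were the 12 with the best mean rank, the 5 strongest of each single list, the 3 widest, the 3 highest and 3 lowest score ratios, those with most peaks, the densest windows, and sites outside regions in both lists. Others were chosen after their values were seen. The members and tests were chosen with earlier results of these data known. Joining and counting were tested on simulated data. Python 3.11.15, numpy 2.4.6, scipy 1.17.1, pandas 2.3.3 and matplotlib 3.10.9 were used.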

Additional observations from a re-analysis of the deposited data

How the results depend on the processing

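Of 29 alternative values for the 6 tests against the other autosomes, 24 kept both the direction and the call. The density of series sites fell to a ratio of 1.34 in sites at or above the median score, which was not past the threshold (adjusted exact binomial p = 0.0904, with a range from 5.78e-09 to 0.0904 over the alternatives). In peaks at or above the median score, the share of regions with a neighbour differed by -8.55 percentage points (III minus the others), past the threshold, and the share with a site turned to a difference of -1.63. The neighbour difference was -6.63 to -4.33 points, and the middle-section difference -1.47 to 1.94 points, when either replicate was left out. The density ratio to chromosome I turned from 0.958 to 1.00 at or above the median score, and ran from 0.915 to 1.05 when either replicate was left out. The cause was not tested. No paired analysis was possible because only ChIP libraries have a list here, so inputs give no value to pair. Leaving out a replicate gives no share of regions found in both lists. Leaving out long runs, expectation by gene number and the single-autosome ratios were chosen after seeing the data. Depth is unknown and limits what a missing peak means.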

Other observations

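In 16 of the 249 regions in both lists, at least 1 replicate had more than 1 peak. Replicate 2 was split in 9 of them, replicate 1 in 6 and both in 1. Where replicate 2 alone was split, the higher of its scores was 1.14 to 4.26 times the lower, and over 2 times in 4 of 9 regions. Examples of these 4, chosen after their values were seen, follow. In the region from 4171074 to 4171233, 1 replicate 1 peak with a score of 40.0 matched replicate 2 peaks of 5.87 on the left and 14.5 on the right. In the region from 8903953 to 8904322, a replicate 1 peak of 24.2 matched replicate 2 peaks of 4.7 and 20.0. The first region had no site of the series list and the second had 1.

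The 10 sites that lay in regions of replicate 2 only had a median score of 0.365, the 3 sites in regions of replicate 1 only had a median of 1.87, and the 142 sites in regions of both lists had a median of 1.85. The first of these sites on the chromosome, from 62781 to 62992, filled nearly the whole of its replicate 2 peak, from 62780 to 62993. Sites at 3736070 to 3736202 and 3736439 to 3736529 each overlapped a replicate 2 peak, side by side. A replicate 1 peak ended at 3736066, just left of the former site. These values are descriptions and were not tested.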
